A study of Homo sapiens with 12 samples.

Results

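The second week of embryoid body culture was examined by comparing the 4 arrays of 2-week embryoid bodies (EBs) with the 4 arrays of 1-week EBs, which are 8 of the 12 arrays of the study. The arrays were chosen by the labelled time in culture, and the comparison ran over all 10562 genes that were detected (probe detection p under 0.01 on at least 4 of the 12 arrays). All RNA came from SNUhES3, an established line of human embryonic stem cells (ESCs) that was the only line used. The 1-week and 2-week EBs had floated for those times in ESC medium that lacked basic FGF, with a change of medium every 2 days. The 4 ESC arrays, from cells on mouse STO feeders that had been arrested in mitosis and kept with basic FGF, entered the fit for the spread between arrays and are given below as a level for reference. The labels state no knockout, transgene or drug in any group, and they do not say whether the 4 arrays of a group are separate cultures, so the spread behind each p-value may be technical only.

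EBs are aggregates in which pluripotent cells form derivatives of the 3 germ layers side by side. When human pluripotent cells lose their self-renewal signals, anterior neural tissue is one of the fates they take, and the eye field, the part of the forebrain plate that gives rise to the retina, is marked by homeobox factors such as RAX, SIX3, PAX6 and LHX2. Mesenchymal cells lay down collagens and small proteoglycans as they mature. The immediate early genes, such as EGR1 and FOS, are transcribed within minutes of growth factor, serum or stress signals and do not need new protein synthesis for it, and hypoxia and amino acid stress have transcriptional programmes of their own, driven by HIF and ATF4.

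Signals were on a log2 scale after background correction and quantile normalization, and every level and difference below is on that scale unless it is given as a fold. Mean probe intensity before normalization was 991 ± 78.0 (SD, n = 4) on the 1-week arrays and 879 ± 122 on the 2-week arrays, and 14045 to 15905 of 48803 probes were detected per EB array. The lowest intensity, 718, and the 14045 detected probes both belonged to 2-week array 2, which correlated with 2-week array 1 at r = 0.9918 across genes, whereas 2-week arrays 3 and 4 correlated at 0.9978. The 1-week arrays fell into the pairs 1-2 and 3-4, with r of 0.9977 to 0.998 within a pair and 0.9919 to 0.9924 between pairs. Of the 2-week arrays 3 and 4 formed such a pair, but arrays 1 and 2 did not clearly do so. There array 1 correlated with arrays 3 and 4 at 0.9949 and 0.994, above its 0.9918 with array 2. Array 2 was nonetheless closest to array 1, with 0.9903 and 0.9897 to arrays 3 and 4. With pairs as random blocks in the fit the consensus correlation within pairs was 0.54, so the 4 arrays of a group may not be independent. Comparing 1-week with 2-week arrays gave 0.9775 to 0.9838. These correlations are across genes, which are not independent replicates. With 4 arrays a group, precision rests on few values.

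A gene was called when limma's adjusted p (Benjamini-Hochberg over all genes) was under 0.05 and the difference at least 1 on the log2 scale, which is 2-fold. In 2-week EBs 93 genes were called higher, 0.881% of those tested, and 53 were called lower, 0.502%, which is 1.38% together. With no minimum difference, 1306 genes were higher and 1492 lower at adjusted p under 0.05, together 26.5%. Most of the second-week changes were therefore under 2-fold, and the median absolute difference of all genes was 0.16. List counts given below at this threshold are to be read beside 1306 and 1492 of 10562 genes. The 4 levels of one time did not overlap the 4 of the other for 145 of the 146 called genes and for 31.9% of all genes. Where a called gene is said below not to overlap, this describes its levels and adds no support to the call. Of the called genes 63.7% were higher, against 44.7% (68 higher and 84 lower) when arrays were scaled to equal medians, which moved the median of all genes from -0.01 to -0.12. The series matrix gave 53 higher and 28 lower, and without 2-week array 2 the counts were 89 and 52.

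**Figure D1:**
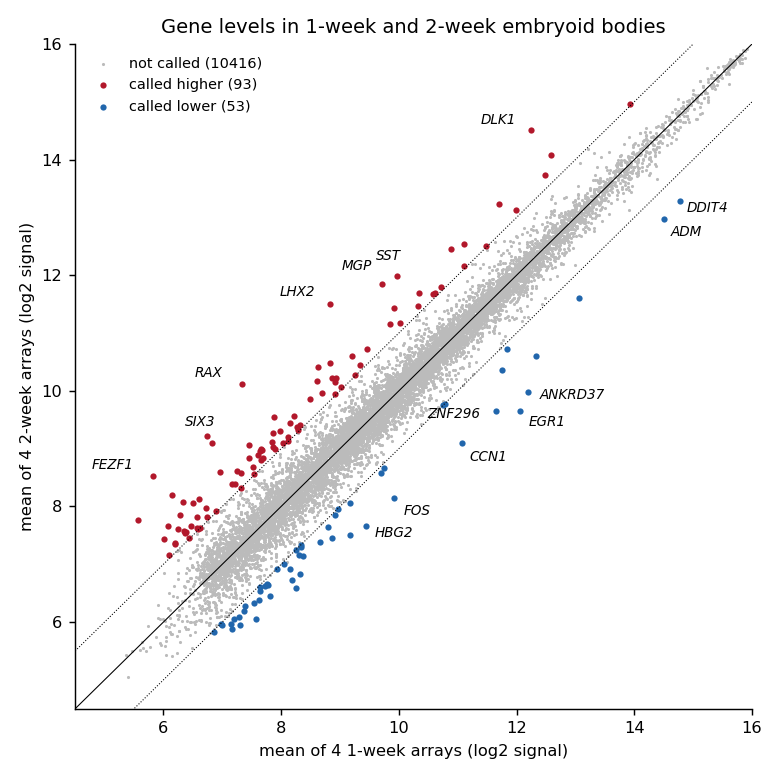
Mean level of each of the 10562 genes on the 4 1-week arrays (horizontal, log2 signal) and the 4 2-week arrays (vertical, log2 signal). The solid line marks equal levels and the dotted lines a difference of 1. Red points are the 93 genes called higher and blue points the 53 called lower, and RAX, FEZF1 and LHX2 lie farthest above the line while EGR1 and ANKRD37 lie farthest below it.

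Of the 93 higher genes 50 were undetected on all 4 ESC arrays, as were 6.10% of all tested genes, and 20 were undetected on all 4 1-week arrays, as were 1.16% of all. The 15 that were detected on 2-week arrays only had passed the detection filter through those arrays alone, so they had to be higher there. Of the 53 lower genes 42 were detected on all 4 ESC arrays, as were 89.0% of all tested genes, and 17 were undetected on all 4 2-week arrays, as were 2.05% of all. The 4 that were detected on 1-week arrays only, NOG and HOXD1 among them, had passed the filter through those arrays alone. They therefore had to be lower at 2 weeks. A gene undetected at one time has only a bound there, and its fold is written as "at least", from the lowest signal of a detected probe on those arrays. Where that bound is under 2-fold, as for FGF8, FYB2, NOG and HOXD1, the call used undetected levels and a 2-fold change is not established. Such genes are still counted in the calls of all genes and of the lists. Members of a gene list that are named below without a call were picked after their values were seen.

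Markers of several cell types were read as a check of the EB label. Mesenchyme (5 of 5 markers), liver or yolk sac endoderm (5 of 5), neurons (5 of 5), endothelium (4 of 4), cardiomyocytes (4 of 5, with no TNNT2 probe tested) and ESCs (5 of 6, with no TDGF1 probe tested) were detected on all EB arrays. The skeletal muscle factors MYOD1, MYOG and MYF5 and the muscle enzyme CKM were undetected on all 8, as were the keratins KRT5 and KRT14 and the leukocyte markers PTPRC, CD14 and SPI1. However, AFP, COL1A1, TEK, ACTC1, NKX2-5, STMN2, DCX, ELAVL3 and TUBB3 were also detected on all 4 ESC arrays. Their detection in EBs does not by itself show those cell types. NKX2-5, ELAVL3 and TUBB3 had ESC means of 7.53, 7.83 and 12.49, above their 1-week means of 7.42, 7.80 and 12.04. The summed linear signal of the 5 mesenchyme markers was 36433 to 50779 at 1 week and 75328 to 91115 at 2 weeks, ranges that do not overlap. That of the 5 neuronal markers was 6261 to 8236 and then 8773 to 15264, and that of the 4 endothelial markers 1453 to 1694 and then 1904 to 2080. Of the neuronal markers TUBB3, DCX and ELAVL3 did not pass the test. The sum of the 5 liver or yolk sac markers was 18370 to 20412 and then 22424 to 23413, and that of the 2 tested erythroid markers 560 to 1678 and then 204 to 559. That of the 5 ESC markers went from 66691 to 78315 at 1 week to 59436 to 63042 at 2 weeks. In such bulk samples more cells of a type and more RNA per cell cannot be told apart.

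The largest rises of the second week were homeobox and zinc finger factors of the eye field and forebrain. RAX, the retina and anterior neural fold homeobox factor, was at 7.27, 7.12, 7.45 and 7.48 on 1-week arrays 1 to 4 and at 10.14, 10.41, 9.88 and 10.05 on 2-week arrays 1 to 4. LHX2, a LIM homeobox factor needed for optic vesicle growth in the mouse, was at 8.85, 8.94, 8.75 and 8.78 and then at 11.52, 11.87, 11.31 and 11.33. SIX3, which protects the anterior forebrain from WNT signals, was at 6.50, 6.56, 6.97 and 6.90 and then at 9.24, 9.30, 9.13 and 9.16. For each of the 3 genes every 2-week array stood more than 2 log2 units above every 1-week array. RAX rose 6.91-fold (log2 2.79, SE 0.13, limma adjusted p = 1.31e-08), LHX2 6.40-fold (adjusted p = 9.69e-09) and SIX3, detected on 2 of 4 1-week arrays, 5.57-fold (adjusted p = 1.63e-08).

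FEZF1, a forebrain zinc finger repressor, was undetected on every ESC and 1-week array, at 5.51, 5.80, 6.05 and 5.97 at 1 week, and stood at 8.77, 8.43, 8.41 and 8.47 at 2 weeks. Its rise was at least 3.26-fold (adjusted p = 1.78e-07). PAX6, a paired homeobox factor of eye, forebrain and neural progenitors, was at 6.27, 6.42, 7.37 and 7.24 and then at 9.19, 9.14, 8.99 and 9.06. Its 1-week arrays 3 and 4 stood above arrays 1 and 2, while the 4 2-week arrays lay close together. It was detected on 2 of 4 1-week arrays. It rose 4.82-fold (SE of the log2 difference 0.21, adjusted p = 6.76e-06), and its other probe gave a log2 difference of 1.07.

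Of the 12 tested genes of the eye field and forebrain list 5 were called higher and none lower, with a median difference of 0.85 beside -0.01 over all genes. At adjusted p under 0.05 with no minimum, 10 were higher and 1 lower. The fifth called member was HESX1, a homeobox repressor of forebrain and pituitary, which rose 2.47-fold (adjusted p = 9.48e-08) and is named after its value was seen, as are the next 4 genes. OTX1, a head and forebrain factor, was higher by 0.91, EMX2, of the dorsal forebrain, by 0.79 and OTX2, a head organising factor already high in ESCs, by 0.53. The exception was TYRP1, an enzyme of melanin synthesis, at -0.42 (adjusted p = 0.00620). The 5 calls were made again with equal medians, in the series matrix and without 2-week array 2.

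Among 23 tested neural progenitor genes, a list that also holds LHX2 and PAX6, 4 were called higher and none lower, and the median was 0.18. SOX21, a SOX factor of neural progenitors, went from 11.44, 11.57, 11.93 and 11.87 to 13.34, 13.25, 13.27 and 13.10, a rise of 2.90-fold (adjusted p = 5.43e-07). It was lower on the 1-week arrays than on all 4 ESC arrays, which stood at 12.60, 12.58, 12.46 and 12.44, and above them at 2 weeks. POU3F1, a POU factor of epiblast and neural cells named after its value was seen, rose 2.56-fold (adjusted p = 1.65e-05). The general progenitor markers SOX1 and ZIC1 were undetected on all 12 arrays, and NES, nestin, differed by 0.11 (adjusted p = 0.445). The summed linear signal of the tested progenitor markers PAX6 and NES was 2798 to 3455 at 1 week and 3506 to 4462 at 2 weeks.

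A few neuronal genes rose as well, and to a higher level on arrays 3 and 4. STMN2, a microtubule regulator of growing axons, was at 10.85, 11.04, 11.29 and 11.28 and then at 12.41, 12.06, 12.96 and 12.70. Its relative STMN4 was at 6.07, 6.05, 6.93 and 6.93 and then at 7.55, 7.41, 8.68 and 8.58. ELAVL4, the neuronal RNA-binding protein HuD, was at 7.03, 7.01, 7.39 and 7.22 and then at 8.02, 7.90, 8.80 and 8.84. At both times arrays 3 and 4 stood above arrays 1 and 2, and no 2-week array overlapped a 1-week array. ESC arrays 3-4 also stood above ESC arrays 1-2 for STMN2, by 0.81, and ELAVL4, by 0.39 (limma adjusted p = 0.000405 and 0.00561). For STMN4 they differed by 0.07 (limma adjusted p = 0.544). The rises were 2.68-fold for STMN2 (adjusted p = 0.000407), 2.95-fold for STMN4 (adjusted p = 0.00137), which was detected on 2 of 4 1-week arrays, and 2.35-fold for ELAVL4 (adjusted p = 0.000572). With the mean of each pair taken as 1 sample, 2 per group, STMN4 and ELAVL4 no longer passed (adjusted p = 0.0736 and 0.0547), and ELAVL4 was under the minimum in the series matrix (0.97).

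Of 35 tested neuron genes 4 were called higher, with RTN1, a reticulon named after its value was seen, as the fourth, and none lower. The list median was 0.41, or 0.18 on arrays 1-2 and 0.58 on arrays 3-4. At adjusted p under 0.05 there were 12 higher and 3 lower, and the lower ones were the neurofilament NEFH (-0.64) and the secretory granule proteins SCG3 (-0.62) and CHGA (-0.51), named after their values were seen. The pan-neuronal tubulin TUBB3 differed by 0.16 (adjusted p = 0.546) and DCX, doublecortin, by 0.45 (adjusted p = 0.0778).

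**Figure D2:**
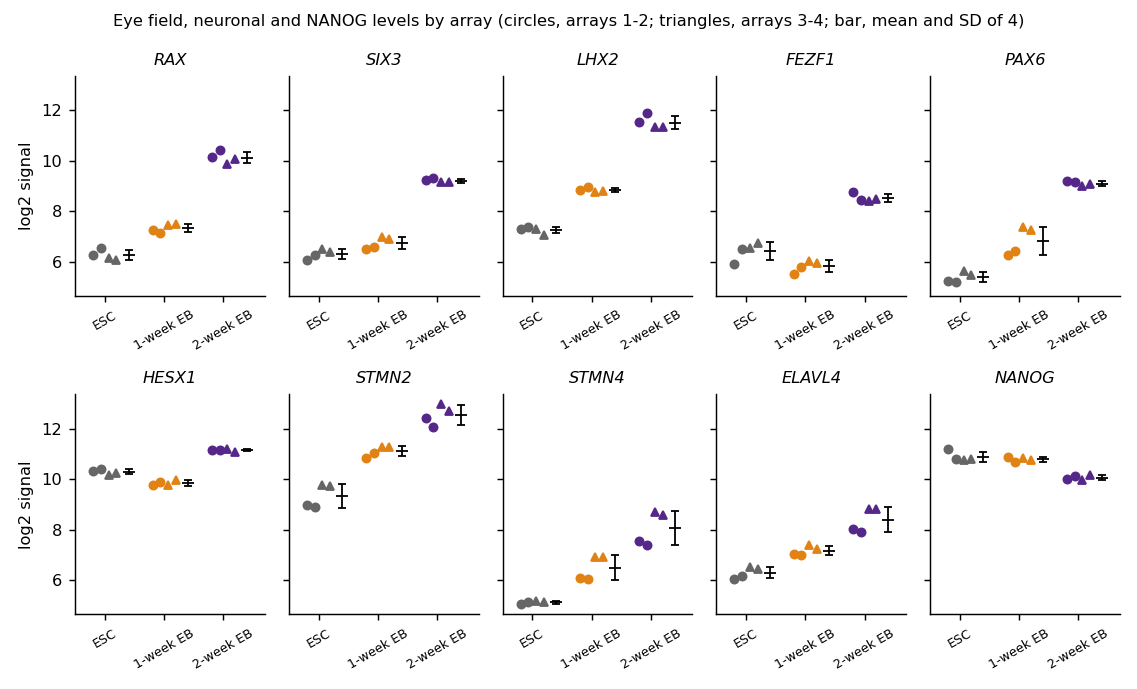
Level (vertical, log2 signal) of 10 genes on each of the 4 ESC, 4 1-week and 4 2-week arrays. Circles are arrays 1-2, triangles arrays 3-4, and the bar beside each group is its mean and SD. The eye field genes of the upper row stand high on the 4 2-week arrays alone, STMN4 and ELAVL4 also separate by pair, and NANOG is lower at 2 weeks than in the other groups.

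Of 20 tested core pluripotency genes none was called, 16 were lower at adjusted p under 0.05 and none was higher, with a median of -0.40. POU5F1, the OCT4 factor, was at 14.19, 14.23, 13.64 and 13.70 on the 1-week arrays and at 13.46, 13.37, 13.45 and 13.47 on the 2-week arrays. Its 1-week pairs differed while its 2-week arrays lay together, so the change was -0.80 on arrays 1-2 and -0.20 on arrays 3-4. NANOG was at 10.88, 10.68, 10.82 and 10.74 and then at 9.99, 10.11, 9.96 and 10.16, with no overlap and no such split. The differences were -0.50 for POU5F1 (SE 0.12, adjusted p = 0.00810) and -0.73 for NANOG (SE 0.10, adjusted p = 0.000118), both under the 2-fold minimum. SOX2, which pluripotent and neural progenitor cells share, differed by 0.15 (adjusted p = 0.234, with its other probe at 0.55), and LIN28A, an RNA-binding protein of stem cells, by -0.03 (adjusted p = 0.805).

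Named after their values were seen, DPPA2, a chromatin factor of pluripotent cells, was at -0.81, the telomere protein TERF1 at -0.77 and the germ cell factor PRDM14 at -0.74. Outside the list, 4 called falls named after their values were seen were of genes linked to pluripotency or telomerase. TFCP2L1, a factor of the naive state in the mouse, was undetected at 2 weeks and fell at least 1.55-fold, DPPA5, detected on 1 of 4 2-week arrays, fell 2.13-fold, and the telomerase RNA TERC, also undetected at 2 weeks, fell at least 1.36-fold. POLR3G, an RNA polymerase III subunit enriched in pluripotent cells, fell 2.01-fold. ZNF296, a zinc finger factor expressed in mouse embryonic stem cells, was at 11.51, 11.58, 11.44 and 11.49 in ESCs and 11.54, 11.70, 11.68 and 11.69 at 1 week, and fell to 9.80, 9.37, 9.63 and 9.80 at 2 weeks. The ESC and 1-week levels lay side by side and all 4 2-week levels lay below them, and the fall from 1 to 2 weeks was 4.01-fold (adjusted p = 1.31e-08).

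Several genes of connective tissue matrix rose. DCN, decorin, a small proteoglycan that binds collagen fibrils, was at 12.94, 12.91, 12.21 and 12.29 and then at 14.14, 14.45, 13.91 and 13.79. COL15A1, a basement membrane collagen, was at 9.28, 9.20, 8.01 and 8.01 and then at 10.76, 10.55, 10.20 and 10.14. MGP, matrix Gla protein, an inhibitor of calcification, was at 9.84, 9.89, 9.50 and 9.59 and then at 11.84, 12.40, 11.63 and 11.52. In each case 1-week arrays 3 and 4 stood below arrays 1 and 2, and all 4 2-week arrays were higher than any of them. DCN rose 2.80-fold (adjusted p = 5.87e-05), COL15A1 3.44-fold (adjusted p = 0.000280, but a difference of 1.16 with adjusted p = 0.103 in the series matrix) and MGP 4.40-fold (adjusted p = 1.23e-06). Other probes of DCN gave 1.33 and 1.35 and that of MGP 1.92.

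Of 24 tested collagen chains 3 were called higher, 15 were higher at adjusted p under 0.05 and none was lower, with a median of 0.54. COL21A1 rose 2.24-fold and COL3A1, a fibrillar chain of soft connective tissue, 2.05-fold (adjusted p = 0.000139), from a 1-week level of 13.93 ± 0.31 (SD, n = 4) to 14.97 ± 0.16. The COL3A1 call was lost under equal medians (difference 0.94), without 2-week array 2 (0.96) and without 1-week array 3 or 4 (0.96 and 0.94). COL1A2 and COL1A1, the chains of type I collagen, were higher by 0.80 and 0.74 without reaching 2-fold. All 4 tested small leucine-rich proteoglycans were higher at adjusted p under 0.05, with a median of 0.85. FMOD, fibromodulin, rose 2.04-fold (adjusted p = 6.25e-06, or a difference of 0.94 with equal medians and of 0.99 and 0.97 without 1-week array 3 or 4), BGN, biglycan, was higher by 0.67 and LUM, lumican, by 0.56 (its other probe by 0.91). In the series matrix COL3A1 and FMOD were also under the minimum (0.96 and 0.88). Among 22 matrix glycoproteins and elastic fibre genes MGP was the only one called higher, while 13 were higher at adjusted p under 0.05 (median 0.43). LOX, the enzyme that cross-links collagen, was higher by 0.77 and SPARC by 0.73. The 2 called falls in that list were CCN1 and CCN2, described with the immediate early genes.

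Of the 15 tested remodelling enzymes and inhibitors 1 was called higher and 1 lower, with a median of 0.28. PLAT, tissue plasminogen activator, was at 7.88, 8.01, 7.75 and 7.81 and then at 9.34, 9.06, 9.31 and 9.36, a rise of 2.65-fold (adjusted p = 3.31e-06, but a difference of 0.85 with adjusted p = 0.0704 in the series matrix). TIMP4, an inhibitor of metalloproteinases, went from 8.46, 8.63, 8.78 and 8.77 to 7.42, 7.10, 7.54 and 7.51, a fall of 2.41-fold (adjusted p = 8.19e-05). Neither gene overlapped between the times. Lateral plate and limb factors, 17 tested with LHX2 among them, had a median of 0.42, and HAND2, a factor of heart and limb mesoderm, was just under the minimum at 0.99 (adjusted p = 2.6e-05).

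Vascular genes were higher at 2 weeks. VWF, von Willebrand factor, the platelet-binding protein stored by endothelial cells, was at 8.58, 8.54, 8.57 and 8.71 and then at 10.31, 10.18, 9.98 and 10.19. It rose 2.96-fold (adjusted p = 5.98e-06) and was the only one of 11 tested endothelial genes called. At adjusted p under 0.05, 8 were higher and none was lower (median 0.34), among them the junction proteins ESAM (0.90), CLDN5 (0.61) and CDH5 (0.55). KDR, a VEGF receptor, differed by 0.19 (adjusted p = 0.110).

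Several lists of tissue genes gave no called gene. Of 18 tested plasma proteins, made in liver and yolk sac, 8 were higher at adjusted p under 0.05 and none lower, and the median was 0.23. ALB, albumin, came closest to the minimum, at 8.05, 7.96, 8.11 and 8.10 and then at 9.66, 9.56, 8.43 and 8.48, a difference of 0.98 (adjusted p = 0.00734) that was 1.61 on arrays 1-2 and 0.35 on arrays 3-4. TTR, AFP and APOA1, which carry thyroid hormone, fetal serum ligands and lipids, differed by 0.09, 0.25 and 0.11 with adjusted p of 0.402, 0.103 and 0.757. Cardiomyocyte genes (14 tested, 5 higher at adjusted p under 0.05, median 0.22) and smooth muscle genes (8 tested, 1 lower, median 0.02) likewise held no call. The cardiac actin ACTC1 differed by -0.14 (adjusted p = 0.255).

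Growth-related imprinted genes held one of the largest rises. DLK1, a NOTCH-related membrane protein of fetal mesenchyme and progenitors, was at 12.26, 12.28, 12.23 and 12.20 and then at 14.66, 14.67, 14.30 and 14.43, a rise of 4.83-fold (SE of the log2 difference 0.09, adjusted p = 9.69e-09), with its other probe at 2.37. CDKN1C, the cyclin-dependent kinase inhibitor p57, went from 10.34, 10.46, 10.69 and 10.81 to 11.67, 11.64, 11.69 and 11.70, a rise of 2.14-fold (adjusted p = 3.22e-06), or a difference of 0.94 with equal medians and of 0.89 in the series matrix. H19, a noncoding RNA, was detected on 1 1-week and 3 2-week arrays, and its call (log2 1.01) was lost in the series matrix, where it was 0.24 (adjusted p = 0.642), and without any 1 of 4 arrays, 1-week arrays 1 and 2 and 2-week arrays 1 and 3, where it was 0.90 to 0.99, and with equal medians (0.96). Of the 15 tested imprinted genes 3 were called higher and 7 were higher at adjusted p under 0.05, IGF2 among them at 0.63 (adjusted p = 0.00127). Of 11 tested IGF binding proteins and partners none was called, 6 were higher and 2 lower at adjusted p under 0.05, and the median was 0.63. IGFBP2 was higher by 0.95, IGFBP5 by 0.95 and IGFBP3 by 0.87, and IGF1R, the receptor, was lower (-0.43).

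The largest fall was that of EGR1, and other genes that respond at once to growth and stress signals fell with it. EGR1, a zinc finger factor of the immediate early class, was at 11.999, 12.08, 12.03 and 12.12 at 1 week and at 9.65, 9.60, 9.67 and 9.66 at 2 weeks. FOS, a subunit of AP-1, was at 9.92, 9.96, 9.94 and 9.87 and then at 8.10, 8.29, 8.02 and 8.15. CCN1 (CYR61), a secreted matrix protein induced by serum and by YAP, was at 11.12, 11.30, 10.89 and 10.99 and then at 9.20, 8.89, 9.18 and 9.14. The lowest 1-week array stood above the highest 2-week array by more than 1.5 log2 units in each gene. The falls were 5.33-fold for EGR1 (log2 -2.41, SE 0.06, adjusted p = 3.08e-11), 3.44-fold for FOS (adjusted p = 9.97e-09) and 3.93-fold for CCN1 (adjusted p = 1.94e-08). CCN2 (CTGF), its relative, went from 13.24, 13.17, 12.91 and 12.94 to 11.62, 11.56, 11.62 and 11.61, a fall of 2.76-fold (adjusted p = 4.73e-06).

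Of 23 tested immediate early genes 4 were called lower and none higher, and 17 were lower at adjusted p under 0.05, with a median of -0.57. The 4 calls were made again with equal medians, in the series matrix and without 2-week array 2. Those under 2-fold included ATF3 (-0.74), JUNB (-0.75), FOSB (-0.61) and JUN (-0.58), AP-1 and CREB family factors, and DUSP1 (-0.54), a phosphatase that ends MAP kinase signals. ESC levels were higher still, at 13.74, 13.87, 13.79 and 13.84 for EGR1 and 12.29, 12.16, 12.04 and 12.04 for FOS. Outside the list, PIM1, a kinase, KLF9, a Krüppel-like factor, BDNF, a neurotrophin, and ANKRD1, a muscle and mesenchyme target of YAP, were also called lower. They are named after their values were seen, with folds of 2.63, 2.68 and 2.22 and, for ANKRD1, which was undetected at 2 weeks, at least 1.84.

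The promoter of EGR1 is shown because serum response factor acts on many genes of this class through the CArG box, and the window (300 bases around the gene's start, RefSeq, GRCh38.p14) held 2 matches to it, in capitals, at chr5:138465229-138465528 on the plus strand. The CArG box was searched on both strands and was found in 351 of 27305 promoter windows of that length, 1.29%. No match was found in the windows of FOS, CCN2 and ANKRD1, and a site outside the 300 bases would not be seen. CCN1 had no window and was not searched. A match is a description of the sequence and not of binding.
EGR1: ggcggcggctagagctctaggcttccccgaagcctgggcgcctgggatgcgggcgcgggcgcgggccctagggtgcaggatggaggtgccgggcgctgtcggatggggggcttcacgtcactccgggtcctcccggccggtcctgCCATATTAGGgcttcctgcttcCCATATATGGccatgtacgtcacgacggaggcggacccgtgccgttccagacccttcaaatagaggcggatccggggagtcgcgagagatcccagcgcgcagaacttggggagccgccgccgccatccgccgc

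**Figure D3:**
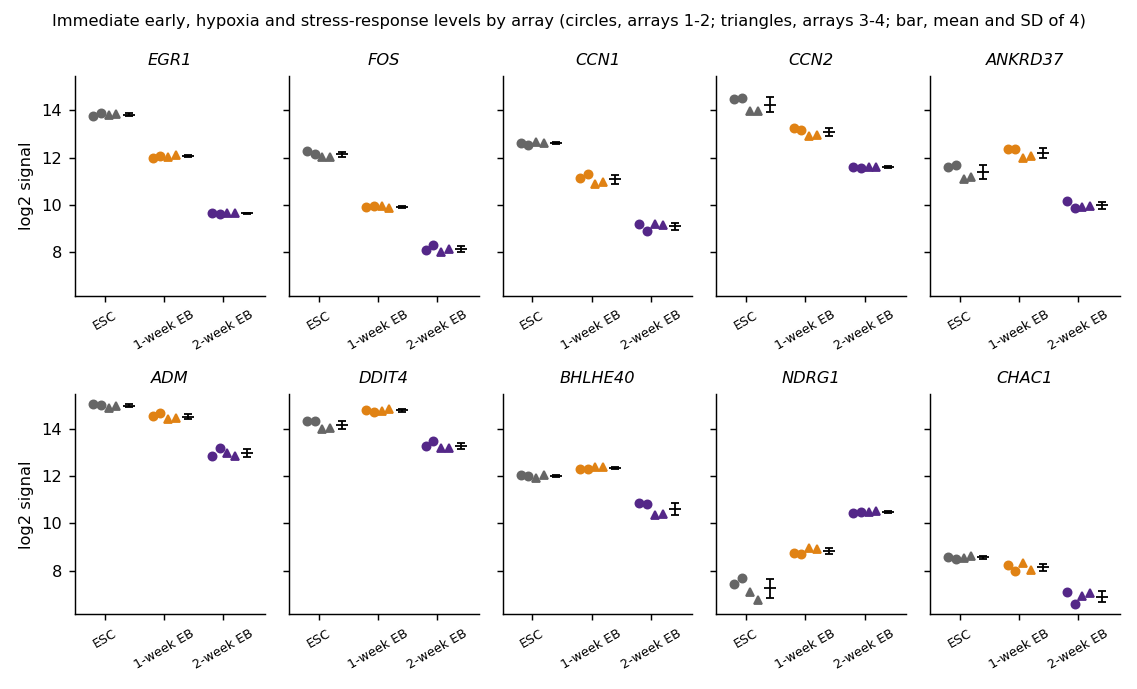
Level (vertical, log2 signal) of 10 genes of the immediate early, hypoxia and amino acid stress lists, with BHLHE40, on each of the 4 ESC, 4 1-week and 4 2-week arrays. Circles are arrays 1-2, triangles arrays 3-4, and the bar is the mean and SD. In 9 of the genes the 2-week arrays stand below the 1-week arrays, and NDRG1 alone is higher at 2 weeks.

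Genes induced by low oxygen did not move one way. ANKRD37, an ankyrin repeat protein and HIF target, was at 12.38, 12.38, 11.997 and 12.05 and then at 10.17, 9.86, 9.93 and 9.97, a fall of 4.66-fold (adjusted p = 2.13e-07). ADM, the vasodilator adrenomedullin, was at 14.54, 14.64, 14.39 and 14.45 and then at 12.86, 13.19, 12.97 and 12.84, a fall of 2.91-fold (adjusted p = 9.48e-08). ANKRD37 stood above all ESC arrays at 1 week and below them at 2 weeks, and ADM stood below them at both times. NDRG1, induced by hypoxia and by differentiation, went the other way, from 8.73, 8.72, 8.95 and 8.91 to 10.46, 10.47, 10.50 and 10.53, a rise of 3.17-fold (adjusted p = 6.84e-06), which in the series matrix was 0.88 (adjusted p = 0.286).

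Of 34 tested hypoxia and glycolysis genes 1 was called higher and 2 lower, and the median was 0.07. At adjusted p under 0.05, 10 were higher and 6 lower, beside 1306 and 1492 of all 10562 genes. The glycolytic enzymes PGK1 (0.50) and ALDOA (0.48) and the collagen hydroxylase P4HA1 (0.49) were among the higher, and the demethylase KDM3A (-0.68) among the lower. BHLHE40, a repressor in the clock and hypoxia responses, went from 12.29, 12.29, 12.38 and 12.38 to 10.85, 10.80, 10.35 and 10.40, a fall of 3.32-fold (adjusted p = 1.78e-07). HILPDA, a lipid droplet protein induced by hypoxia, fell 2.01-fold (adjusted p = 5.09e-05), and COXFA4L2 (NDUFA4L2), a mitochondrial protein that is a HIF target, rose 2.44-fold (adjusted p = 4.73e-06). The last pair are named after their values were seen.

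Genes of the amino acid and protein folding stress responses were mostly lower. DDIT4 (REDD1), an inhibitor of mTORC1 that responds to hypoxia, stress and ATF4, was at 14.79, 14.72, 14.74 and 14.85 and then at 13.27, 13.47, 13.18 and 13.20, a fall of 2.82-fold (adjusted p = 1.78e-07). CHAC1, which degrades glutathione, went from 8.25, 8.0, 8.31 and 8.03 to 7.10, 6.59, 6.93 and 7.05, a fall of 2.35-fold (adjusted p = 4.73e-06). Neither overlapped between the times. In the list of 28, 2 were called lower and none higher, 16 were lower and 1 higher at adjusted p under 0.05, and the median was -0.33. TRIB3 (-0.95), DDIT3 (-0.75) and ASNS (-0.43), targets of ATF4, were lower without reaching 2-fold. The single higher member was HSPA5 (0.63), the chaperone BiP of the endoplasmic reticulum.

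The promoter windows of ANKRD37, BHLHE40 and DDIT4 are shown because these falls include genes known to respond to hypoxia, whose element has the core ACGTG. That motif was searched on both strands and lies in 5900 of 27305 windows, 21.6%, so it is common. Only windows of genes that fell were read one by one. NDRG1, which rose, and HILPDA, which had no window, were not read, so matches cannot be set against the direction of change. The palindrome CACGTG matches on both strands and counts as 2 overlapping matches. ANKRD37 (chr4:185396591-185396890, plus strand) had 3 matches, BHLHE40 (chr3:4979187-4979486, plus strand) had 4 and DDIT4 (chr10:72273674-72273973, plus strand) had 1, all in capitals, and none was found in the window of ADM.
ANKRD37: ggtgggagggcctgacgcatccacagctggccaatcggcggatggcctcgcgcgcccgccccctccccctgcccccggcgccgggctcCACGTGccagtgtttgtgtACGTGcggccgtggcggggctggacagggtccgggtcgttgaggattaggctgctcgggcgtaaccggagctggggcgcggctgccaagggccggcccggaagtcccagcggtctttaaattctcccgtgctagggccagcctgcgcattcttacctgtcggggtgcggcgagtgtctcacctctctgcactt
BHLHE40: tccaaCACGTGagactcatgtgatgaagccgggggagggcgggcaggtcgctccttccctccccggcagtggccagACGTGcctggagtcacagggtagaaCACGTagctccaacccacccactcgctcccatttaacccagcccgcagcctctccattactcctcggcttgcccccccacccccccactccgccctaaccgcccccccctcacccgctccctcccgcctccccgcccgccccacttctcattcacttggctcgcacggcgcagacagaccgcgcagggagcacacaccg
DDIT4: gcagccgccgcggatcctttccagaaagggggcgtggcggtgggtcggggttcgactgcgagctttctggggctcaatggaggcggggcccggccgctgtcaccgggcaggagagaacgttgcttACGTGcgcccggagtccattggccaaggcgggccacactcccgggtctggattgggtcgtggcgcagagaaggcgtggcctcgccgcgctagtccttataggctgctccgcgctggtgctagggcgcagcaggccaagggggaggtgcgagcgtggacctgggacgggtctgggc

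Signalling genes changed at the level of ligands, inhibitors and feedback. FGF8, a ligand of midbrain, forebrain and limb patterning, was undetected at 1 week and at 7.40, 7.77, 7.63 and 7.41 at 2 weeks, a rise of at least 1.67-fold (adjusted p = 4.02e-05). FGF9, another FGF ligand, rose 2.11-fold (adjusted p = 1.74e-05), with detection on 2 of 4 1-week arrays. Both differences were under the minimum in the series matrix (0.78 and 0.73). Among members of the same list that were not called, the feedback inhibitor SPRY4 was at -0.998 (adjusted p = 3.59e-06) and the ETS factors ETV5 and ETV4 at -0.64 and -0.60. In the whole list of 20 FGF and ERK genes, 2 were called higher and none lower, 2 were higher and 11 lower at adjusted p under 0.05, and the median was -0.28.

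BMP and WNT inhibitors moved in both directions. GREM1, a secreted BMP antagonist, was at 7.06, 6.74, 6.99 and 7.02 and then at 8.86, 8.63, 8.49 and 8.38, a rise of 3.11-fold (adjusted p = 2.81e-06), with its other probe at 1.90. NOG, noggin, another BMP antagonist, went from 7.63, 7.34, 7.34 and 7.23 to 6.46, 6.06, 6.15 and 6.47, where it was undetected, a fall of at least 1.37-fold (adjusted p = 1.41e-05, but a difference of -0.51 in the series matrix). NOG had passed the detection filter through its 1-week arrays alone, so its p-value is no separate support for a fall. FRZB, a secreted WNT inhibitor, was at 12.53, 12.53, 12.49 and 12.40 and then at 13.88, 13.77, 13.66 and 13.63, a rise of 2.37-fold (adjusted p = 1.78e-07). None of these levels overlapped between the times. Of 20 tested BMP genes 1 was called in each direction (median 0.22), and of 18 WNT targets and inhibitors FRZB alone was called (median -0.01), while SFRP1 and DKK1, inhibitors too, were higher by 0.96 and 0.83.

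The remaining largest rises fell outside the tissue groups above. SST, the peptide hormone somatostatin of gut, pancreas and brain, was at 9.96, 10.11, 9.95 and 9.87 and then at 11.83, 11.91, 12.12 and 12.09, a rise of 4.04-fold (adjusted p = 9.69e-09). GLIS3, a zinc finger factor of pancreas and thyroid, and FYB2, an adaptor protein, were undetected at 1 week and rose at least 2.62-fold and 1.92-fold (adjusted p = 1.5e-07 and 6.78e-08). DSC3, a desmosomal cadherin, rose 2.05-fold (a difference of 0.91 with equal medians and of 0.97 to 0.98 without 1-week array 3, 1-week array 4 or 2-week array 1), and CXCL14, a chemokine, 2.22-fold (adjusted p = 1.6e-05 and 9.77e-06). In the series matrix FYB2 and CXCL14 were under the minimum (0.91 and 0.86). The metallothioneins MT2A and MT1E, which bind zinc and copper, rose 2.08-fold and 2.03-fold, and both were under the minimum without 2-week array 2 (0.98 and 0.88) and with equal medians (0.90 and 0.86). MT2A was under it without 2-week array 1 (0.98) and MT1E without 1-week array 3 or 4 (0.99 and 0.96).

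Falls also came from channels, junctions and patterning genes. CACNA1I, a T-type calcium channel, was at 8.54, 8.42, 8.04 and 8.01 and undetected at 2 weeks, a fall of at least 2.50-fold (adjusted p = 4.6e-07, but a difference of -0.97 in the series matrix). CLDN10, a tight junction claudin, went from 11.81, 11.97, 11.84 and 11.71 to 10.35, 10.50, 11.04 and 10.98, a fall of 2.17-fold (adjusted p = 8.31e-05) that was larger on arrays 1-2 and was -0.99 on the log2 scale without 2-week array 1. It was the single call among 20 tested genes of simple epithelium and junctions, of which 10 were lower and 2 higher at adjusted p under 0.05 (median -0.22). EPCAM was lower at -0.43 and the epithelial splicing factor ESRP1 at -0.85, whereas the keratin KRT19 was higher by 0.44. HOXD1 was the single call among 13 tested HOX genes and fell at least 1.16-fold, a call that was lost in the series matrix (-0.70 there, -1.17 here). HOXD1 had passed the detection filter through its 1-week arrays alone. Of 35 tested mitosis genes none was called, and 9 were lower and 1 higher at adjusted p under 0.05 (median -0.15). DNA replication genes (38 tested, 4 higher, 6 lower, median -0.11) and cytosolic ribosomal proteins (60 tested, 2 higher, none lower, median 0.06) held no call either.

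**Figure D4:**
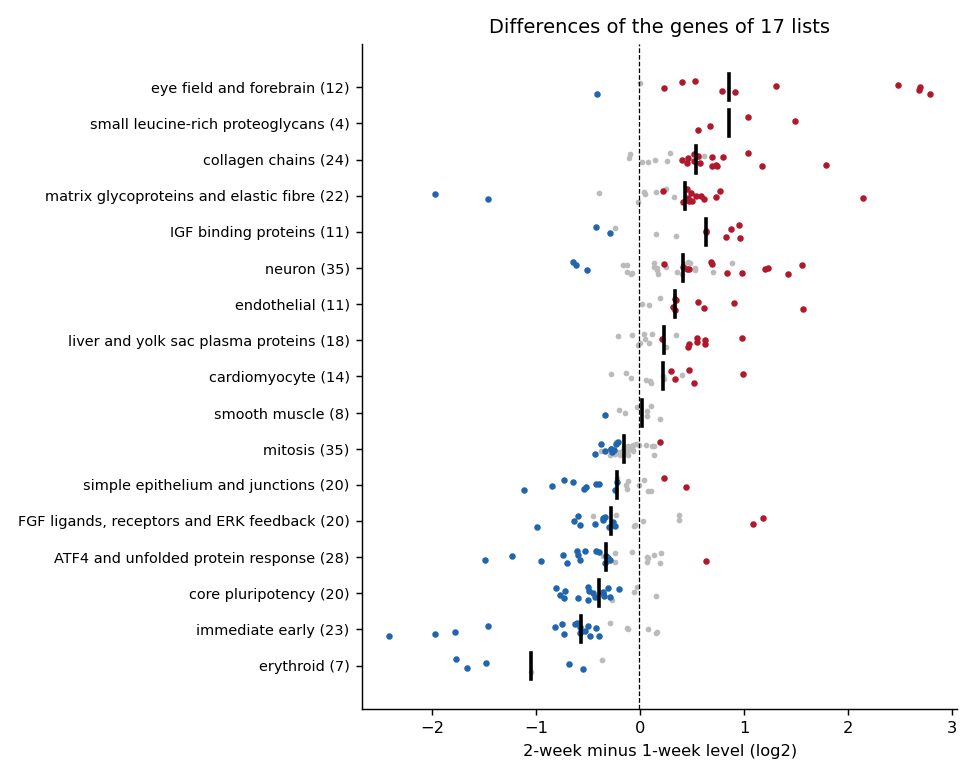
Difference between 2-week and 1-week levels (horizontal, log2) of every tested gene of 17 gene lists, with the number tested in parentheses. Red and blue points are higher and lower at adjusted p under 0.05, grey points did not pass, the black bar is the list median and the dashed line the median of all genes. The eye field list has a median of 0.85 and the immediate early list one of -0.57, and the erythroid median of -1.05 rests on 7 genes.

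The second question was which changes differed between arrays 1-2 and arrays 3-4. The labels do not say what the pairs are. Moreover, 2-week array 1 correlated better with 2-week arrays 3 and 4 than with array 2, although array 2 was closest to array 1. If both arrays of a pair hold the same culture, this comparison sets 1 sample against 1. All 146 called genes had the same sign in both pairs. Their call on all arrays leaves little room for opposite signs, so this is no separate support. Taken alone, arrays 1-2 called 114 genes higher (1.08%) and 82 lower (0.776%), and arrays 3-4 called 131 higher (1.24%) and 53 lower (0.502%). With equal medians arrays 1-2 gave 65 and 186. Of the 93 higher genes 61 were called in each pair alone, and of the 53 lower genes 31. EGR1 fell by 2.41 in both pairs. LHX2 rose by 2.80 on arrays 1-2 and 2.55 on arrays 3-4, and RAX and SIX3 also rose more on arrays 1-2. RAX rose by 3.08 and 2.50 and SIX3 by 2.74 and 2.22 (limma adjusted p of the difference = 0.0546 and 0.0224). The median of the eye field and forebrain list was 1.00 and 0.74, and that of the neural progenitor list 0.36 and 0.06. The neuron list went the other way, at 0.18 and 0.58.

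The test of the difference itself called 90 genes. For 78 of them, 0.738% of those tested, the change was greater (more upward) on arrays 3-4, and for 12, 0.114%, it was lower. Of the 90, 7 were also called in the comparison of all arrays, namely HBG2, HBG1, HBA1, OLR1 and PAX6 among the lower and EBF3 and PRPH among the greater. The counts were 143 and 9 with equal medians, 2 and 3 in the series matrix and 138 and 36 without 2-week array 1. In 27 of the 78 and 5 of the 12 the gene was undetected on both arrays of a pair at one time or the other, and with those levels at their bound 55 and 9 had a difference of at least 1.

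Globin chains, which fill red blood cells with haemoglobin, had the lowest values of this difference. HBG2, a fetal chain, was at 8.66, 8.66, 10.15 and 10.28 at 1 week and at 8.34, 8.29, 6.99 and 7.04 at 2 weeks. HBE1, the embryonic chain, was at 7.29, 7.57, 8.78 and 8.76 and then at 7.88, 7.70, 6.27 and 6.34, and HBA1, an adult and fetal alpha chain, at 7.65, 7.57, 9.07 and 8.96 and then at 7.35, 7.54, 6.42 and 6.02. At 1 week arrays 3 and 4 stood above arrays 1 and 2 for each of these chains, and at 2 weeks they stood below them. The HBA1 probe also read 7.52, 7.60, 7.55 and 7.67 on the ESC arrays. HBG2 changed by -0.35 on arrays 1-2 and by -3.20 on arrays 3-4, a difference between the pairs of -2.86 (SE 0.11, adjusted p = 9.75e-08). HBE1 and HBA1 were undetected on both 2-week arrays 3-4, so their changes there are bounds. HBE1 was at 0.36 on arrays 1-2 and at -1.97 or lower on arrays 3-4 (-2.46 as measured, adjusted p of the difference between pairs = 8.45e-07). HBA1 was at -0.17 and at -2.22 or lower (-2.80 as measured, adjusted p = 3.55e-06). In the series matrix the pair difference of HBA1 was -2.28 with a limma adjusted p of 0.0618. HBG1, whose sequence is nearly identical to that of HBG2 so that probes may not separate them, was detected on 1 of the 2-week arrays 3-4 and changed by -0.30 and -3.03.

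Over all arrays HBG2, HBG1 and HBA1 were called lower in the second week (3.42-fold, 3.18-fold and 2.79-fold), and these 3 calls did not pass with pair means as samples (adjusted p = 0.125, 0.132 and 0.151), nor did those of HBG1 and HBA1 in the series matrix (adjusted p = 0.107 and 0.170). HBE1 did not pass over all arrays (-1.05, adjusted p = 0.0653), but passed without 1-week array 1, 2-week array 1 or 2-week array 2 (adjusted p = 0.0311, 0.0286 and 0.0440) and with equal medians (0.0226). The 7 tested erythroid genes had a median of -0.35 on arrays 1-2 and of -2.46 on arrays 3-4, or -1.97 with the undetected levels at their bound. AHSP, the alpha globin chaperone, and TFRC, the transferrin receptor, were lower in both pairs (-0.81 and -0.56, -0.61 and -0.49). HBZ, an embryonic alpha-like chain, was detected on 2 1-week arrays and on no other.

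The other negative calls were smaller. OLR1, a scavenger receptor for oxidised lipoprotein, was at 7.42, 7.46, 7.16 and 7.23 and then at 9.32, 9.46, 7.80 and 7.73, with a difference of 1.95 on arrays 1-2 and of 0.57 on arrays 3-4 (adjusted p of the difference between pairs = 4.66e-05). Over all arrays OLR1 was called higher, 2.39-fold (adjusted p = 0.0117, but 0.167 with pair means as samples and 0.0816 in the series matrix, and a difference of 0.97 without 2-week array 2). PAX6, undetected on 1-week arrays 1-2, rose by at least 2.35 on arrays 1-2 (2.82 as measured) and by 1.72 on arrays 3-4 (adjusted p of the difference as measured = 0.000310; with the bound the difference is at least 0.63 in size), from the unequal 1-week levels given above to nearly equal ones. HES5, a NOTCH target of neural progenitors, changed by 0.32 and -0.97 (adjusted p = 0.000574), and its 1-week levels were 8.54, 8.30, 9.89 and 9.87. CLDN11, a claudin of myelin and testis, and the small nucleolar RNA SNORD64 changed by 1.17 and 0.49 on arrays 1-2 and by -0.11 and -0.84 on arrays 3-4, and the pair difference of CLDN11 was under the minimum without 1-week array 2 (-0.97) and, with 1-week arrays 1-2 at their bound since CLDN11 was undetected there, at -0.56. In the series matrix the pair differences of OLR1, HES5, SNORD64 and CLDN11 did not pass (limma adjusted p = 0.292, 0.807, 0.479 and 0.411). The differences there were -1.41 for OLR1, -0.32 for HES5, -1.26 for SNORD64 and -0.93 for CLDN11.

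Among the 78 positive calls the largest was GOLGA8B, a member of a golgin family with near-identical copies that a probe may not separate. It was at 10.69, 10.73, 8.79 and 9.07 and then at 10.02, 10.25, 10.96 and 10.85, and thus changed by -0.58 on arrays 1-2 and by 1.98 on arrays 3-4 (difference between pairs 2.55, SE 0.15, adjusted p = 1.53e-06). MIAT, a noncoding RNA of neural and heart cells, was at 10.53, 10.48, 9.24 and 9.14 and then at 9.90, 9.77, 10.69 and 10.63 (difference 2.15, adjusted p = 8.45e-07), and COL7A1, the anchoring fibril collagen, at 8.95, 8.92, 7.68 and 7.81 and then at 8.36, 8.14, 9.28 and 9.37 (difference 2.27, adjusted p = 1.53e-06). In all 3 genes the 1-week arrays 3 and 4 were the lowest of the 8. The other 5 of the 8 largest were AHSA2P, CSAD, PAQR6, ADHFE1 and MIR124-1HG, with differences of 2.45, 2.22, 2.16, 2.13 and 2.12. None of these 8 pair differences passed in the series matrix, although there they ranged from 0.97 for ADHFE1 to 3.08 for GOLGA8B. CSAD was at 2.28, COL7A1 at 1.56 and MIAT at 1.55. There limma's adjusted p was 0.0618 for GOLGA8B, MIAT, COL7A1 and PAQR6 and 0.411 to 0.423 for the rest. PAQR6, ADHFE1 and MIR124-1HG were undetected on both arrays of a pair at each time, and with those at their bounds the differences were 0.01, 0.75 and 0.37. ESC arrays 3-4 stood above ESC arrays 1-2 for several of these genes too, by 1.38 for GOLGA8B, 0.90 for MIAT and 0.82 for CSAD (limma adjusted p = 6.14e-06, 1.12e-05 and 0.000488).

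This layout was general among the positive calls. In 74 of the 78 both 1-week arrays 1-2 stood above both 1-week arrays 3-4, and in 74 the change was below 0 on arrays 1-2 and above 0 on arrays 3-4. The median of arrays 3-4 minus arrays 1-2 over the 78 genes was -0.94 at 1 week, 0.48 at 2 weeks and 0.15 in ESCs. These values belong to the contrast that chose the genes and are a description. The positive calls included 8 of the 37 tested small nucleolar RNA genes, beside 0.738% of all genes. Of the 8, SNORA64, SNORD14D, SNORD22, SNORD35B and SNORD36C were undetected on both arrays of a pair at one time or the other. With those levels at their bound the pair differences were 0.39, -0.29, 0.08, -0.26 and 0.78. The median second-week change of the 37 was -0.57 on arrays 1-2 and -0.02 on arrays 3-4. Over all genes it was -0.01 in both pairs. ISL1, a LIM homeobox factor of cardiac progenitors and motor neurons, named after its value was seen, was at 10.92, 10.90, 10.61 and 10.52 and then at 10.81, 10.41, 11.67 and 11.66, a change of -0.30 on arrays 1-2 and of 1.10 on arrays 3-4 (adjusted p of the difference = 0.000310).

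**Figure D5:**
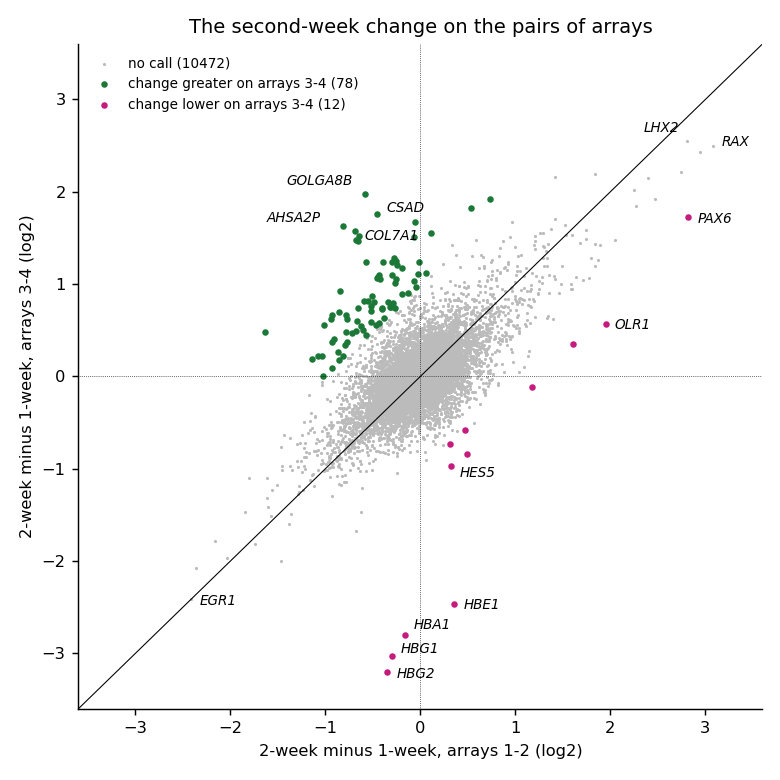
Second-week change of each gene on arrays 1-2 (horizontal, log2) and on arrays 3-4 (vertical, log2), with the line of equal change. Green points are the 78 genes whose change was greater on arrays 3-4 and pink points the 12 whose change was lower. The 4 globin points lie between -0.35 and 0.36 on the horizontal axis and, as measured, between -3.20 and -2.46 on the vertical one. LHX2 and EGR1 lie near the line, and RAX lies farther below it.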

How the data were processed

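Transcript levels of SNUhES3 cells and their EBs were read on Illumina HumanWG-6 v3 BeadChips, 12 arrays in all and 4 per group. The deposited table without normalization holds linear intensity and a detection p-value for every probe, per the file headers. Its scanner software and background handling are not given in the sources used here. The deposited series matrix holds log2 values with a median of 6.68 in every column and no gene centring, and how the authors made them is not given in the sources used here. Its column for 2-week array 2 correlated with that array's own log2 intensity at 0.938, and it served as an alternative only.

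Intensities were corrected, quantile normalized and put on the log2 scale with neqc of limma 3.58.1 (R 4.3.3, offset 16), which removes a change shared by most genes and shrinks differences of dim probes. Kept probes were detected (p-value under 0.01) on 4 or more of the 12 arrays (15921, of which 13586 had 1 gene symbol), and the brightest stood for its gene, which gave 10562 genes. Names came from the platform annotation, where 27578 probes had 1 symbol, 13 several and 21212 are unnamed here.

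All 12 arrays were fitted with lmFit and eBayes on group means, and again on 6 means of group and array pair, whose contrast subtracts the change on arrays 1-2 from that on arrays 3-4. The array pairs, gene lists and comparison were chosen with earlier results of these data known. The genes named are the 10 largest rises and falls that did not overlap and were detected on all 4 arrays of the higher group, POU5F1, NANOG and SOX2, up to 3 called members of each list in each direction, the 8 largest pair differences in each direction, and the markers, and any other gene is said to be named after its value was seen. The fits were tested on simulated data. Alternatives were equal medians, the series matrix, a stricter filter and none, the mean of a gene's probes, the 8 EB arrays alone, replicate and pair blocks, a trended robust prior, other thresholds, each EB array left out and, added after seeing the data, pair means as samples. Promoter sequences are from RefSeq (GRCh38.p14), matched by symbol for 8 genes.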

Additional observations from a re-analysis of the deposited data

Results flagged for a closer look

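In 7 of 200 groups of 4 arrays 1 array lay farther from the other 3 than Dixon's test allows. Chance gives about 1 in 20, so the number flagged is no more than chance would give. FEZF1 at 2 weeks was at 8.77 on array 1, against 8.41 to 8.47 on the others. At 1 week array 1 was the low one for FYB2 (5.47, against 5.59 to 5.60), ZNF296 (11.54, against 11.68 to 11.70) and L1TD1, an RNA-binding protein of stem cells (13.52, against 13.62 to 13.64). The remaining 3 were on 2-week array 2, which had the lowest intensity. SOX2 was at 14.11 there, against 14.32 to 14.34, TAGLN, a smooth muscle actin-binding protein, at 12.42, against 12.12 to 12.17, and NES at 11.93, against 11.54 to 11.58.

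The second-week change differed between the array pairs by limma's test of the difference for 78 genes that changed more upward on arrays 3-4 and for 12 that changed more downward there, and the globin chains had the lowest values.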

How the results depend on the processing

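The number of arrays and signals near background limit the smaller differences, and genes undetected at one time have bounds only. The comparison called 93 genes higher and 53 lower with the replicate block, with the array pair as a fixed or random block, with the 8 EB arrays alone and with a trended robust prior. Replicate numbers did not pair the arrays (r of deviations -0.086 to 0.136 for equal numbers), and the block changed no call. The series matrix gave 53 and 28, with 49 of the 93 and 20 of the 53 called again, and equal medians gave 68 and 84, with 68 and 53 called again. Without a minimum difference the counts were 1306 and 1492. With pair means as samples, added after seeing the data, they were 82 and 47. Leaving out each EB array gave 89 to 102 higher and 51 to 60 lower.

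For the difference between pairs, 78 and 12 became 143 and 9 with equal medians and 2 and 3 in the series matrix, and 71 to 138 and 11 to 36 when an EB array was left out, both highest without 2-week array 1. On arrays 1-2 alone the counts were 65 higher and 186 lower with equal medians, 35 lower in the series matrix, and 113 to 129 higher and 73 to 161 lower with an array left out. On arrays 3-4 alone the series matrix gave 56 and 19, and leaving an array out 124 to 141 and 51 to 58. No named gene reversed its sign where it was called. The chip could not be used as a block, since no column name gives one. The cause of these shifts was not tested.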
